A study of Mus musculus with 6 samples.

Results

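The effectors of the integrated stress response followed here are the transcripts of Atf4, Ddit3, Trib3 and Chac1 in mouse adipose-derived mesenchymal stem cells. They were taken as every probe annotated to those 4 symbols, which gave 6 probes of the 13805 that carried a single gene symbol and 4 genes of 9751. Atf4 had 3 probes and each of the others had 1. The genes were picked with their levels on these same arrays known, so their levels, differences and slopes are a description and carry no p-value.

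The cells were isolated from the fat of C57BL/6 mice, taken at dorsal and inguinal sites, and grown in DMEM/F12 with 10% fetal bovine serum. After a night on culture plates they received an osteogenic DMEM/F12 that held 15% fetal bovine serum, dexamethasone (a synthetic glucocorticoid) at 0.1 µM, ascorbic acid at 50 µM, β-glycerophosphate at 10 mM and 0.4% DMSO. RNA was taken at day 0 and after 1, 3, 6, 10 and 14 days in that medium, with 1 Illumina bead array a day. The number of mice and of cultures behind an array is not given in the sources used here. No array followed cells held in growth medium over the same days, so time in the osteogenic medium and time in culture cannot be told apart. With 1 array a day no difference between single days has a test, and a lower level in this bulk RNA may mean fewer cells of a type or less RNA per cell, which cannot be told apart.

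The number of probes detected per array, meaning a detection p under 0.01, lay between 12891 and 13980, and the median signal between 126.8 and 141.3. Of 15 listed genes of mesenchymal stromal cells 12 had a probe, and 11 (day 3) or 12 (the other days) of them were detected. Their levels were not steady. Between day 0 and day 10 the log2 level of Thy1 went from 15.26 to 13.02 and that of Col1a1 from 15.74 to 12.08. Pdgfra went from 12.52 to 14.67 and Dcn from 13.61 to 15.48. Of the 9 osteoblast markers 3 had a probe (Sp7, Alpl and Col1a1). All 3 were detected up to day 6, 1 on day 10 and 2 on day 14, and their summed signal was 53379, 46989, 56783, 38787, 4762 and 4854 on the 6 days in turn. That sum is mostly the signal of Col1a1, which is also in the stromal list. From day 0 to day 1 the log2 level of Col1a1 went from 15.74 to 15.16. Sp7 went from 10.38 to 11.60 and Alpl from 9.18 to 9.64, against the direction of the sum. Of the 10 adipocyte markers 6 had a probe. On day 0 there were 3 of these detected, on day 1 there were 4 and from day 3 on all 6, and their summed signal was 9433, 14303, 32273, 46924, 56612 and 49149 on the 6 days in turn. Detected markers of macrophages and leukocytes numbered 1 or 2 of the 2 with a probe, of endothelium 3 of 4 and of smooth muscle and pericytes 4 to 6 of 6. The part of these cell types in the results that follow was not tested.

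In the integrated stress response, kinases that sense amino acid shortage, unfolded protein in the endoplasmic reticulum, haem shortage or viral RNA phosphorylate the translation factor eIF2α. Most protein synthesis is then slowed while the mRNA of ATF4, a bZIP transcription factor, is translated more, and ATF4 turns on genes of amino acid supply and of stress signalling. Among its targets are Ddit3, which encodes the pro-apoptotic bZIP factor CHOP, Trib3, which encodes a pseudokinase that binds ATF4 and AKT, and Chac1, which encodes an enzyme that cleaves glutathione. ATF4 is also known as a factor required for osteoblast maturation in mice. Arrays of this kind read the amount of mRNA and not the translation of ATF4.

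On their brightest probes the 4 transcripts stood at their highest level on day 0 and differed in what followed. Trib3, Chac1 and Ddit3 were 53.5-fold, 14.5-fold and 8.43-fold lower on day 1 than on day 0, and Atf4 was 1.76-fold lower on its brightest probe. After day 1 the levels of Ddit3 and Trib3 lay higher again up to day 10, while those of Chac1 and Atf4 were lower still from day 6 on.

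Atf4, the transcription factor at the head of the pathway, was read by 3 probes. On probe ILMN_2642681 the deposited signal for days 0, 1, 3, 6, 10 and 14 was 9693, 6925, 6193, 4192, 4856 and 4099. On the normalized log2 scale these levels were 13.31, 12.49, 12.57, 12.07, 12.22 and 12.03. Day 0 was highest, days 1 and 3 were alike within 0.08 log2 units, and the 3 later days lay within 0.20 of each other. Probe ILMN_1223734 gave log2 levels of 12.18, 11.20, 10.92, 10.46, 10.55 and 10.37 on the 6 days in turn. It had a wider span, 1.81 log2 units against 1.28 on the brightest probe, and was lower on day 3 than on day 1 where the brightest probe was level, and the correlation of both probes over the 6 arrays was 0.981. The third probe, ILMN_1232872, was dim and was detected on days 0, 1 and 3 with log2 levels of 7.30, 7.31 and 7.08. It showed no lower level on day 1, in contrast to the other probes. On day 14, where it was not well above background, it was at least 1.58-fold lower than on day 0 on the corrected signals. The authors' deposited table gives 1.56-fold, so that bound holds only for the corrected signals.

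Ddit3, the gene of CHOP, had a signal of 3834, 639, 801, 901, 1632 and 1342 on the 6 days in turn. Its log2 levels were 11.99, 8.91, 9.47, 9.73, 10.53 and 10.30 on those days. The lowest level was that of day 1, each of days 3, 6 and 10 lay above the day before it in the series, and day 14 lay just under day 10. Trib3, the pseudokinase gene, had a signal of 6229, 243, 267, 303, 647 and 343 on the 6 days in turn. The log2 levels of Trib3 were 12.68, 6.94, 7.42, 7.72, 9.06 and 7.93. Its day 1 signal had a detection p of 0.00998, at the edge of detection, so the size of its first-day difference depends on how background is handled. Day 10 stood above both of its neighbours in time.

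Chac1, the gene of the glutathione-cleaving enzyme, had a signal of 5313, 532, 523, 344, 251 and 263 on the 6 days in turn. Its log2 levels were 12.46, 8.60, 8.74, 7.98, 7.19 and 7.36 on the 6 days in turn. Days 1 and 3 differed by 0.13, and the lowest level was that of day 10, not day 1. On days 10 and 14 its detection p was 0.00624 and 0.00499, close to the limit of 0.01. The size of its later differences therefore also depends on how background is handled. None of the 6 probes came near the top of the scale, since each lay under 16% of the highest signal on its array.

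**Figure D1:**
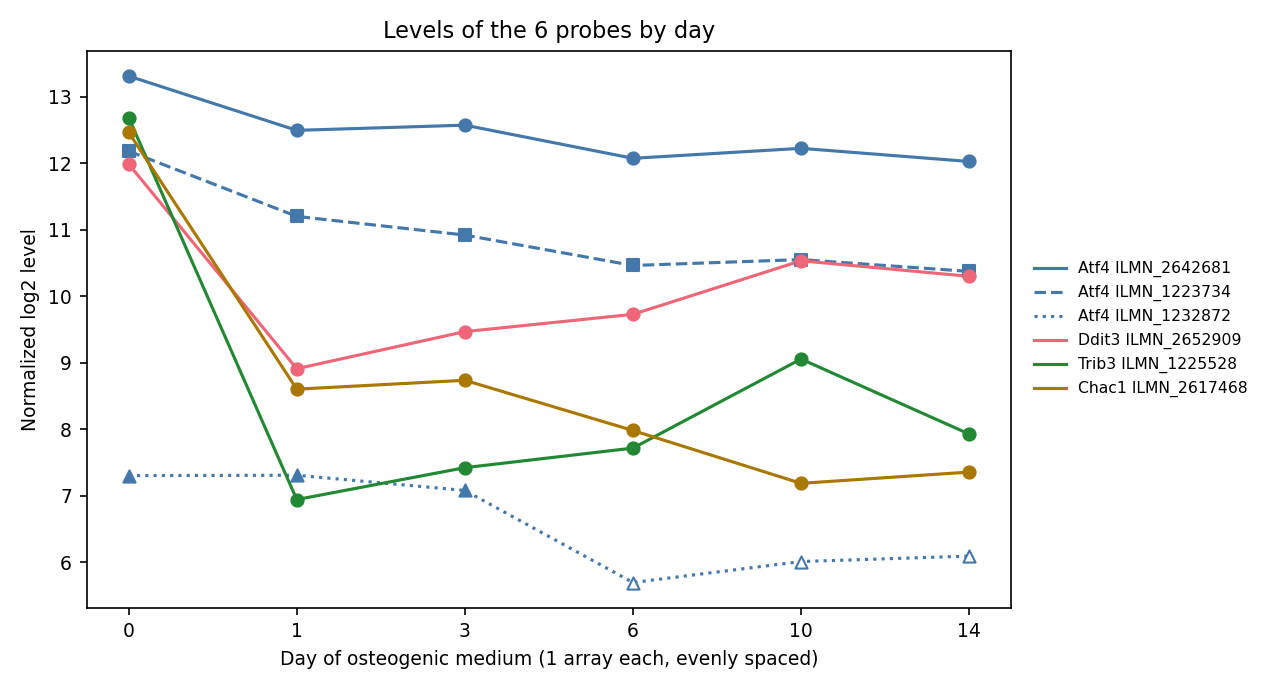
Normalized log2 level (vertical axis) of the 6 probes of Atf4, Ddit3, Trib3 and Chac1 on days 0, 1, 3, 6, 10 and 14 (horizontal axis, evenly spaced). Each point is 1 array, so no error bars exist; open symbols mark arrays where the probe was not detected. Trib3 was at 12.68 at the start, had its lowest level, 6.94, on day 1 and stood at 9.06 on day 10, the day when Chac1 was lowest (7.19).

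The promoters of Trib3 and Chac1, the pair of genes with the largest first-day differences, are shown because both hold letters of the composite element that C/EBP and ATF factors bind. The windows run from 250 bases before to 50 bases after the annotated start in the RefSeq annotation of GRCm38.p6, at chr2:152344011-152344310 on the minus strand for Trib3 and at chr2:119350992-119351291 on the plus strand for Chac1. Capitals mark matches of TGATGNAA, TGNNGCAAT and TGACG read on either strand.
Trib3: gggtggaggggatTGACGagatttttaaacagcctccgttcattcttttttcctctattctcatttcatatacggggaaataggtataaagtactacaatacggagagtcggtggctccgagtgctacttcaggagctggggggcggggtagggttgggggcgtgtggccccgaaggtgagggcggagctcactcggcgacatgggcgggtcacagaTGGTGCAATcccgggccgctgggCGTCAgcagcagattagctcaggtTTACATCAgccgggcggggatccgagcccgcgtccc
Chac1: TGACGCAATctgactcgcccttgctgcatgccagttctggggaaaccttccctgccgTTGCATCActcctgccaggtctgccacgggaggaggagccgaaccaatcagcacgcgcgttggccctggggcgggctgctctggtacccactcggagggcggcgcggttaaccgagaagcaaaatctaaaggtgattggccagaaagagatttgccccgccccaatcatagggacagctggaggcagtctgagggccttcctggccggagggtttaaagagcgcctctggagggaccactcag
In the Trib3 window TTACATCA, a match of TGATGNAA on the opposite strand, lay at positions 15 to 22, counted from the start as position 1, and TGGTGCAAT began 33 bases before the start. In the Chac1 window TTGCATCA, also a match of TGATGNAA on the opposite strand, began 193 bases before the start. TGACGCAAT opened the Chac1 window, and its first 5 letters are at the same time a TGACG. TGATGNAA was held by 3.97% of 32851 promoter windows and TGNNGCAAT by 2.12%, and TGNNGCAAT was added after the windows had been seen. TGACG, the core of the cyclic AMP response element, was found in the windows of Atf4, Trib3 and Chac1 and in 20.8% of all windows. The full palindrome TGACGTCA (1.79% of windows), the longer TGATGCAAT (0.192%) and the endoplasmic reticulum stress element (0.119%) were in none of the 4 windows. The Ddit3 window held none of the motifs searched. These are matches of letters in short windows, all searched on both strands, and nothing on binding follows from them.

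The step from day 0 to day 1 was the largest between any neighbouring days for each of the 4 genes on its brightest probe. Trib3 differed by -5.74 log2 units, Chac1 by -3.86, Ddit3 by -3.08 and Atf4 by -0.82, with -0.98 on Atf4 probe ILMN_1223734. Of the 4 genes 3 were at least 2-fold lower on day 1, in a comparison where 3.65% of 8133 genes detected on either array were. Because the genes were chosen on this contrast, nothing is read from that count or from the ranks of the 4 genes on day 1. Among 7554 genes detected on both arrays Trib3 and Chac1 had the lowest and the next lowest difference. They were followed by the clock-controlled factor Dbp (-3.19), Ddit3 and Aldh1l2, a mitochondrial folate enzyme (-3.00). Among the 8133 genes detected on either array, which include genes lost from detection on day 1, Ddit3 was at rank 7 from the lowest.

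The size of the Trib3 difference rested on the treatment of background, while its sign and those of the others did not. Without background correction Trib3 was 29.6-fold lower on day 1, and the authors' deposited table of folds gives 29.37-fold, the lowest value of 17787 probes in it. The same authors' deposited table puts Chac1 at 11.66-fold, Ddit3 at 7.11-fold and the brighter Atf4 probes at 1.75-fold and 1.93-fold lower on day 1, and the dim Atf4 probe at a fold of 1.00. Scaling the arrays by their medians instead of quantiles put the median of all genes 0.205 log2 units above 0 on day 1. Relative to that median Trib3 was at -5.80, Chac1 at -3.88, Ddit3 at -3.08 and Atf4 at -0.75. Quantile normalization gave 323 genes at least 2-fold higher on day 1 and 297 lower, so 52.1% of them were higher. With median scaling there were 567 higher and 209 lower (73.1% higher), and with no normalization between arrays 641 and 184 (77.7%).

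From day 1 on the 4 genes parted. With day 10 set over day 1, Ddit3 was 3.08-fold higher and Trib3 4.32-fold higher, whereas Chac1 was 2.67-fold lower. Atf4 was 1.21-fold lower on its brightest probe and 1.57-fold lower on probe ILMN_1223734. Without background correction Trib3 was 2.81-fold higher, Ddit3 2.71-fold higher and Chac1 1.98-fold lower. In the day 10 over day 1 comparison 18% of 8479 genes were at least 2-fold higher and 17% lower. Among 7999 genes compared in both steps, 248 were at least 2-fold lower on day 1 than on day 0. Of these, 140 were then at least 2-fold higher on day 10 than on day 1, 33 were lower and 75 lay within 2-fold. A higher level after a first-day difference was thus not particular to Ddit3 and Trib3. Ranked from the highest difference, Trib3 was at 476 and Ddit3 at 802 of 8479 genes. Trib3 took most of its difference between days 6 and 10, at 2.53-fold, where 1.29% of genes were at least 2-fold higher and 4.28% lower. Of the genes past 2-fold in that step 23.2% were higher, and 33.3% with no normalization between arrays. From day 10 to day 14 Trib3 was 2.18-fold lower, a step in which 0.252% of genes were at least 2-fold lower. On the deposited signals of Trib3, 647 on day 10 and 343 on day 14, this step stayed under 2-fold. Its place past 2-fold therefore depends on how the signals are processed. Ddit3 was 1.18-fold lower in the same step and Chac1 1.12-fold higher. All of these values compare single arrays, and the day 1 array is shared with the first-day comparison.

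On their brightest probes none of the genes was back at its day 0 level on any later array. On day 14 Chac1 was 34.4-fold lower than on day 0, Trib3 27.0-fold, Ddit3 3.22-fold and Atf4 2.44-fold (3.50-fold on probe ILMN_1223734), in a comparison where 14% of genes were at least 2-fold lower. On day 10, when Ddit3 and Trib3 were at their highest after the first day, Ddit3 was still 2.74-fold and Trib3 12.4-fold lower than on day 0. The authors' deposited table gives the same order on day 14, with Chac1 21.56-fold, Trib3 19.27-fold and Ddit3 3.05-fold lower.

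Slopes over time describe the same courses. Each is the change in log2 level for every step of 1 in log2(day + 1), with the standard error of the limma fit. Over days 0 to 14 the slope was -1.14 ± 0.229 for Chac1, -0.29 ± 0.0678 and -0.43 ± 0.0756 for the brighter probes of Atf4, -0.70 ± 0.450 for Trib3 and -0.17 ± 0.259 for Ddit3 (n = 6 arrays). Each error measures scatter around a line, which was wide for Trib3 and Ddit3, whose courses turned after day 1. Nothing is tested by these slopes, since the genes were chosen with these levels known, the first-day step included. Over days 1 to 14 (n = 5 arrays) the slope was 0.53 ± 0.0993 for Ddit3, 0.52 ± 0.187 for Trib3 and -0.54 ± 0.133 for Chac1. It was -0.17 ± 0.0812 for the brightest Atf4 probe and -0.28 ± 0.0818 for Atf4 probe ILMN_1223734. The later slope of Trib3 hung on single arrays, being 0.34 without day 10 and 0.78 without day 14.

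The courses were most alike within the pairs Atf4 with Chac1 and Ddit3 with Trib3. Over the 6 arrays Pearson r of the log2 levels was 0.960 between Atf4 and Chac1 and 0.958 between Ddit3 and Trib3, and 0.571 to 0.799 for the other 4 pairs. Over days 1 to 14 alone (n = 5) it was 0.918 between Ddit3 and Trib3 and 0.806 between Atf4 and Chac1, against -0.928 between Chac1 and Ddit3, -0.856 between Chac1 and Trib3, -0.689 between Atf4 and Ddit3 and -0.491 between Atf4 and Trib3. All of these share the same arrays and, in the first set, the high day 0 level.

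The genes with the most similar courses were sought among 3141 genes detected on all 6 arrays with a span of at least 1 log2 unit. Closest to Atf4 by r over the 6 arrays were Asns, which makes asparagine (0.980), Nars, the asparaginyl-tRNA synthetase, Xpot, an exporter of tRNA from the nucleus, Tpi1, a glycolytic enzyme, and Fez1 (0.974). Closest to Chac1 were Cyb5r1 (0.981), Pramel34, Asns (0.979), E130308A19Rik and Agap1. Closest to Trib3 were Atf5, a bZIP factor related to ATF4 (0.984), the growth arrest gene Gadd45a (0.978), Riiad1, Pfkl and Angptl6. Closest to Ddit3 were Irs1, an adaptor of the insulin receptor (0.976), Pbxip1, Afap1, Naa60 and Trib3 (0.958). By the distance between centred levels, which also weighs the size of the steps, the nearest gene to Chac1 was the amino acid transporter gene Slc7a5 (0.711 log2 units), to Trib3 it was Ddit3 (1.03), to Ddit3 it was Atf5 (0.392) and to Atf4 it was E130308A19Rik (0.106).

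**Figure D2:**
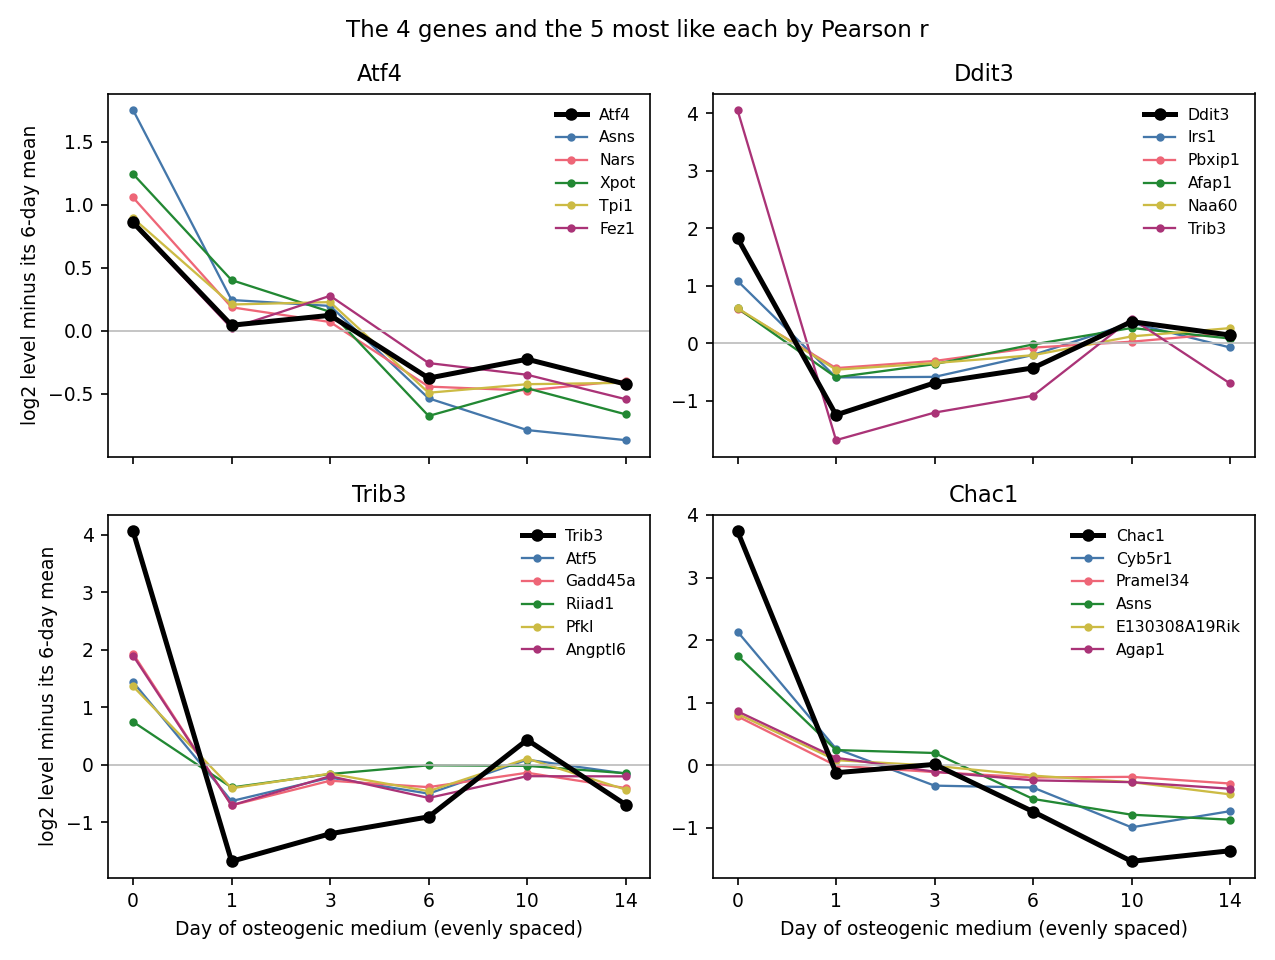
Log2 level minus its own mean over 6 days (vertical axis) against day (horizontal axis, evenly spaced) for Atf4, Ddit3, Trib3 and Chac1 (black, 1 panel each) and the 5 genes with the highest Pearson r to each (coloured). Each point is 1 array. All genes shown share a high day 0. Trib3 itself was higher on day 10 than on days 6 and 14, by 1.34 and 1.13 log2 units, whereas Riiad1 was level on days 6 and 10 and Angptl6 on days 10 and 14.

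Genes around the 4 effectors were described through 12 lists, which were drawn up with earlier results of these data known. They hold 193 symbols, of which 155 had a probe and 147 were tested. Over all genes tested with limma along days 0 to 14 (Benjamini-Hochberg adjusted p under 0.05), 18.5% of 8881 rose and 17.7% fell. Along days 1 to 14, 18.6% of 8830 rose and 17.9% fell. The calls along days 1 to 14 depend on the scale of time, since with the slope taken on the untransformed day 0 genes were called by limma in either direction (3151 of 8830 at an unadjusted p under 0.05). The 4 effectors are left out of every list count.

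Most of the measured sensors and switches of the pathway differed little in mRNA on day 1. Of the 19 listed genes 14 were measured. The kinase gene Eif2ak3 (PERK) was not detected on any array. The kinase gene Eif2ak4 (GCN2) and Eif2s1, the gene of eIF2α itself, were listed but not measured. Phosphorylation of eIF2α is not read by such arrays. The list of eIF2α kinases, phosphatase subunits and eIF2 and eIF2B subunits had 14 measured members with a median day 1 difference of -0.04 log2 units, against -0.01 for all genes. Of these 14 only Ppp1r15a was at least 2-fold lower on day 1 (2.64-fold). Ppp1r15a encodes GADD34, which brings a phosphatase to eIF2α and is itself a target of ATF4 and CHOP. Over the whole course there were 5 members that fell and 1 that rose (Dele1), the fallers being Eif2s2, Eif2b1, Eif2b2, Eif2b3 and Eif2b5, which are subunits of eIF2 or of its exchange factor. These calls rested on single arrays, with 3 falling without day 0, 1 or 6, 2 without day 10 and 1 without day 14, and 0 rising when any single day was left out. Along days 1 to 14 there were 3 that fell and 0 that rose, with 0 falling without day 1 and 1 without day 6, 10 or 14.

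The factors that pair with ATF4 or CHOP, or modify them, had 16 measured members with a median day 1 difference of -0.30. At least 2-fold lower were Atf5 (4.20-fold), Nupr1 (3.51-fold), a small stress-induced co-regulator of transcription, and Ddit4 (3.12-fold), an inhibitor of mTORC1 that is no bZIP factor. In the 0 to 14 day test Cebpa, a driver of adipocyte differentiation, and Fos rose with slopes of 0.65 ± 0.0747 (limma adjusted p = 0.00363) and 0.54 ± 0.088 (limma adjusted p = 0.00695), and Fosl1 fell, a call that was lost without day 1, 6, 10 or 14. Without day 0 there were 5 that rose. From day 1 on there were 5 that rose and 1 that fell, with 2 rising without day 1, 3 without day 10 and 0 falling without day 14. Atf5 had log2 levels of 13.26, 11.19, 11.60, 11.32, 11.91 and 11.67 on the 6 days in turn, a course close to that of Trib3 with smaller steps. Among 7 measured paralogues of the effectors the median day 1 difference was 0.17, and only Atf5 was at least 2-fold lower. Trib1 and Trib2, which encode the relatives of TRIB3, were 1.24-fold lower and 1.57-fold higher on day 1, against the 53.5-fold difference of Trib3. Of the 7 paralogues, Cebpa rose and Trib1 fell along days 0 to 14 (Trib1 not without day 0, 1, 6, 10 or 14). Along days 1 to 14 there was 1 that rose (0 without day 1) and 0 that fell. Among all genes 18.5% rose and 17.7% fell along days 0 to 14, and 18.6% and 17.9% along days 1 to 14. Nothing is read from the trend counts in lists of 16 and 7 genes.

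The target genes of ATF4 and CHOP, in 4 lists together, had 54 members that could be compared on day 1. Of these 46 were lower and 21 at least 2-fold lower, 0 were at least 2-fold higher, and the median difference was -0.74. Among all genes 3.65% were at least 2-fold lower, 3.97% higher, and the median was -0.01. With median scaling the median stood 0.740 below that of all genes, with 19 at least 2-fold lower and 1 higher. Over days 0 to 14 there were 25 of 56 that fell and 7 that rose, and 12 rose when day 0 was left out. From day 1 on 21 of 55 fell and 12 rose, counts that were 9 and 5 without day 1 and 13 and 12 without day 14. Over the same arrays the summed signal of the mesenchymal stromal markers was 183597 on day 0, with 172797 on day 1 and a range of 125873 to 201751 over the course. The osteoblast markers were lowest and the adipocyte markers highest on day 10 (4762 and 56612), and their part in these counts was not tested.

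Enzymes of amino acid synthesis and of the mitochondrial folate pathway were lower on day 1 and most fell over the course. Their list also holds the tRNA synthetase gene Mars1, which fell and is counted again among the synthetases. All 10 that could be compared were lower on day 1, 4 of them at least 2-fold: Aldh1l2 (7.99-fold), Gpt2 (4.46-fold), which makes alanine, Asns (2.84-fold) and Mthfd2 (2.20-fold), a mitochondrial folate enzyme. The test over days 0 to 14 found 9 of 11 that fell and 1 that rose, Cbs of transsulfuration. Along days 1 to 14 there were 8 that fell and 1 that rose (5 fell without day 14, and 0 rose without day 1). Cbs was detected on only 2 of the 6 arrays, so its slope runs mostly through levels not above background. The steepest were Mthfd1l at -1.17 ± 0.0919 (limma adjusted p = 0.00189), Bcat1 at -1.08 ± 0.138 (0.00442), Mthfd2 at -1.05 ± 0.0914 (0.0022) and Phgdh, the first enzyme of serine synthesis, at -0.82 ± 0.0956 (0.00365), and each passed without any single day. The call of Aldh1l2 was lost without day 0, 6, 10 or 14. Asns had log2 levels of 13.50, 12.00, 11.95, 11.21, 10.96 and 10.88 on the 6 days in turn, each array below the one before it.

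Of 10 carriers of amino acids 2 fell and 2 rose along days 0 to 14, near the shares of all genes (17.7% and 18.5%). On day 1 there were 5 of 10 at least 2-fold lower and the median was -0.99. Among these were the glycine carrier Slc6a9 (5.77-fold), the neutral amino acid carriers Slc1a4 (3.55-fold) and Slc7a5 (3.13-fold), and the cystine carrier Slc7a11 (2.43-fold). The cationic amino acid carrier Slc7a3 was detected on day 0 and not on day 1. It was at least 2.84-fold lower on the corrected signals and 2.83-fold without background correction. From day 0 to day 14 Slc7a5 (-1.16 ± 0.0924, limma adjusted p = 0.00189) and Slc7a11 (-0.71 ± 0.0849, 0.00399) fell, and Slc43a1 (0.96 ± 0.117, 0.00407) and Slc1a5 (0.77 ± 0.125, 0.00695) rose. Without day 1 there were 5 that fell. Along days 1 to 14 there were 2 of 9 that fell and 2 that rose, with 1 each without day 1. Slc7a5 had log2 levels of 14.04, 12.39, 11.17, 10.01, 9.99 and 9.38 from day 0 to day 14, of all candidates the course nearest in size to Chac1.

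The cytosolic tRNA synthetases, listed together with the tRNA exporter gene Xpot, fell in 13 of 15 cases over the course. On day 1 there were 3 of 15 at least 2-fold lower, Sars (2.61-fold), Aars (2.47-fold) and Cars (2.32-fold), and the median was -0.37. Along days 0 to 14 there were 13 of 15 that fell and 0 that rose, 10 to 12 when a single day was left out, led by Aars (-0.66 ± 0.0742, limma adjusted p = 0.00357), Cars (-0.63 ± 0.0723, 0.00363), Xpot (-0.48 ± 0.073, 0.006) and Tars (-0.47 ± 0.0712, 0.00588). Along days 1 to 14 there were 10 that fell, but 2 without day 1 and 4 without day 10 or day 14. Nars, close to Atf4 in its course, was 1.83-fold lower on day 1 and lost its call without day 0.

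Targets in signalling, redox defence and cell death were mostly lower on day 1, and 9 of 21 then rose. Of 20 compared on day 1 there were 9 at least 2-fold lower, and the median was -0.97. The stress-responsive gene Ndrg1, not detected on day 1, was at least 6.51-fold lower, but 4.19-fold without background correction, so that bound holds only for the corrected signals. Gadd45a was 6.22-fold lower, the lipoprotein receptor gene Vldlr 4.73-fold and the actin regulator Avil at least 2.23-fold. The test from day 1 on found 9 of 21 that rose and 2 that fell (4 rose and 0 fell without day 1). Those rising with a call that held without any single day were the secreted glycoprotein gene Stc2 (2.10 ± 0.328, limma adjusted p = 0.00656), Ndrg1 (1.48 ± 0.2, 0.00474), Ddit4 (1.17 ± 0.119, 0.00374) and Nupr1 (0.80 ± 0.0839, 0.00374). Ddit4 had log2 levels of 10.95, 9.31, 10.38, 11.62, 12.61 and 12.37 on the 6 days in turn, so unlike Ddit3 and Trib3 it stood above its day 0 level from day 6 on. Gadd45a, at 11.41 on day 0 and 8.77 on day 1, was between 9.07 and 9.34 on the 4 later days. Along days 0 to 14 there were 4 that rose and 2 that fell, Vegfa (-0.71 ± 0.103, limma adjusted p = 0.00557) and Tnfrsf10b, and 9 rose when day 0 was left out. Without day 1 there were 2 that rose and 4 that fell, and without day 6, 10 or 14 there were 2 that rose. The adipocyte markers were also higher on the later arrays, and their part was not tested.

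**Figure D3:**
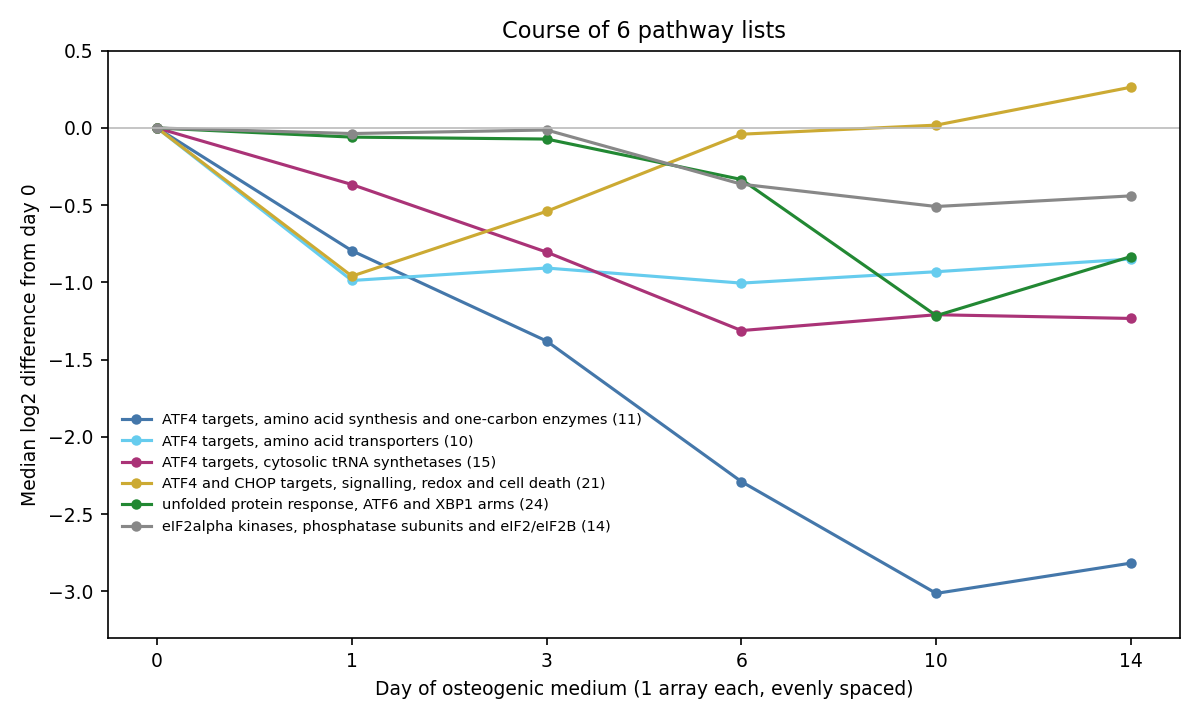
Median log2 difference from day 0 (vertical axis) by day (horizontal axis, evenly spaced) over the genes of 6 lists detected on at least 1 array, with their number in the legend; each point is a median over genes of 1 array and has no error bar. The medians of the enzymes (blue) and tRNA synthetases (purple) lay at -2.82 and -1.23 on day 14, and that of the signalling, redox and cell death list (yellow) was -0.96 on day 1 and 0.26 on day 14.

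Chaperones and other targets of ATF6 and XBP1, the arms of the unfolded protein response that run beside the eIF2α kinase PERK, had a median close to that of all genes on day 1. Of 24 compared only Herpud1, which ATF4 targets too, was at least 2-fold lower (3.20-fold), and the median was -0.06. Hspa5, the gene of the chaperone BiP, was 1.07-fold higher on day 1 and Xbp1 1.03-fold higher. Of the 24 genes 10 fell and 2 rose along days 0 to 14, with 5 falling without day 10, and 4 falling and 1 rising without day 14. Along days 1 to 14 there were 9 of 23 that fell and 3 that rose, with 5 falling and 0 rising without day 1 and 1 rising without day 6, 10 or 14. Hspa5 had a slope of -0.71 ± 0.0974 (limma adjusted p = 0.0048) over days 0 to 14 and Hyou1, a chaperone of the same compartment, one of -0.63 ± 0.0911 (0.00557), and both calls held without any single day. Hspa5 had log2 levels of 11.83, 11.93, 11.17, 10.03, 9.52 and 9.53 on the 6 days in turn.

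Around the reaction that CHAC1 carries out, the list of the gamma-glutamyl cycle and glutathione synthesis had 11 members with a median day 1 difference of -0.02, and 2 of them, Slc7a11 and Anpep, were at least 2-fold lower (0 of them without background correction). Dpep1, a peptidase that takes apart the dipeptide left after glutathione is trimmed, was 4.07-fold higher. Gclc, which sets the rate of glutathione synthesis, was detected on day 1 and not on day 0, and was at least 1.02-fold higher, so it is not counted as past 2-fold. Along days 0 to 14 there were 3 that rose and 2 that fell, and along days 1 to 14 there were 2 and 3. For 11 genes these counts are near the shares of all genes. Those were 18.5% and 17.7% along days 0 to 14, and 18.6% and 17.9% along days 1 to 14. Dpep1 rose by 1.22 ± 0.139 (limma adjusted p = 0.00363) to a signal of 62258 on day 14, close to the highest signal of that array (62522), so the size of its slope is not resolved. Oplah, which opens the 5-oxoproline that CHAC1 releases, rose by 0.97 ± 0.165 (0.00779). Over days 0 to 14 there was 1 gene of this list that fell without day 10 or day 14, and over days 1 to 14 there were 0 that rose or fell without day 1, 4 that rose without day 3 and 1 that fell without day 10.

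In the mitochondrial unfolded protein response list, 2 of 8 were at least 2-fold lower on day 1, Atf5 and the protease gene Lonp1 (2.85-fold), and the median was -0.09. Along days 0 to 14 there were 3 that fell and 1 that rose (Yme1l1, with a slope of 0.21, or -0.07 when its probes were averaged), but 1 fell without day 0, 10 or 14 and 0 rose without day 0, 6, 10 or 14, and along days 1 to 14 there was 1 that fell (0 without day 1, 2 without day 6) and 0 that rose. Among 13 regulators of AKT and TORC1, the signalling that TRIB3 is known to bind into, Ddit4 and Sesn3 (2.98-fold) were at least 2-fold lower on day 1 and Deptor, an inhibitor of mTOR, was 3.41-fold higher, with a median of -0.20. With the mean of all its probes Deptor was 1.93-fold higher, and 0 genes of the list were then at least 2-fold higher. Along days 0 to 14 there were 3 that rose and 0 that fell (1 rose without day 10 or day 14), and along days 1 to 14 there were 4 that rose (2 without day 1, 6 or 10) and 0 that fell. Deptor had the steepest slope of that list, 1.20 ± 0.0953 (limma adjusted p = 0.00189), and its call held without any single day. Of 10 housekeeping genes 0 were past 2-fold on day 1 and the median was -0.06. Yet 6 of them fell and 1 rose along days 0 to 14, as along days 1 to 14, with 3 falling without day 10 and 2 without day 14 in the longer series. In the shorter one 0 fell without day 1 and 1 without day 10. A fall over the course was not limited to genes of this pathway. Of all genes 17.7% fell and 18.5% rose along days 0 to 14, and 17.9% and 18.6% along days 1 to 14. The small day 1 medians of the eIF2α, chaperone, gamma-glutamyl, mitochondrial, AKT and TORC1 and housekeeping lists have no settled sign, since with median scaling they were 0.21, 0.20, 0.17, 0.14, 0.06 and 0.07, against 0.205 for all genes.

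**Figure D4:**
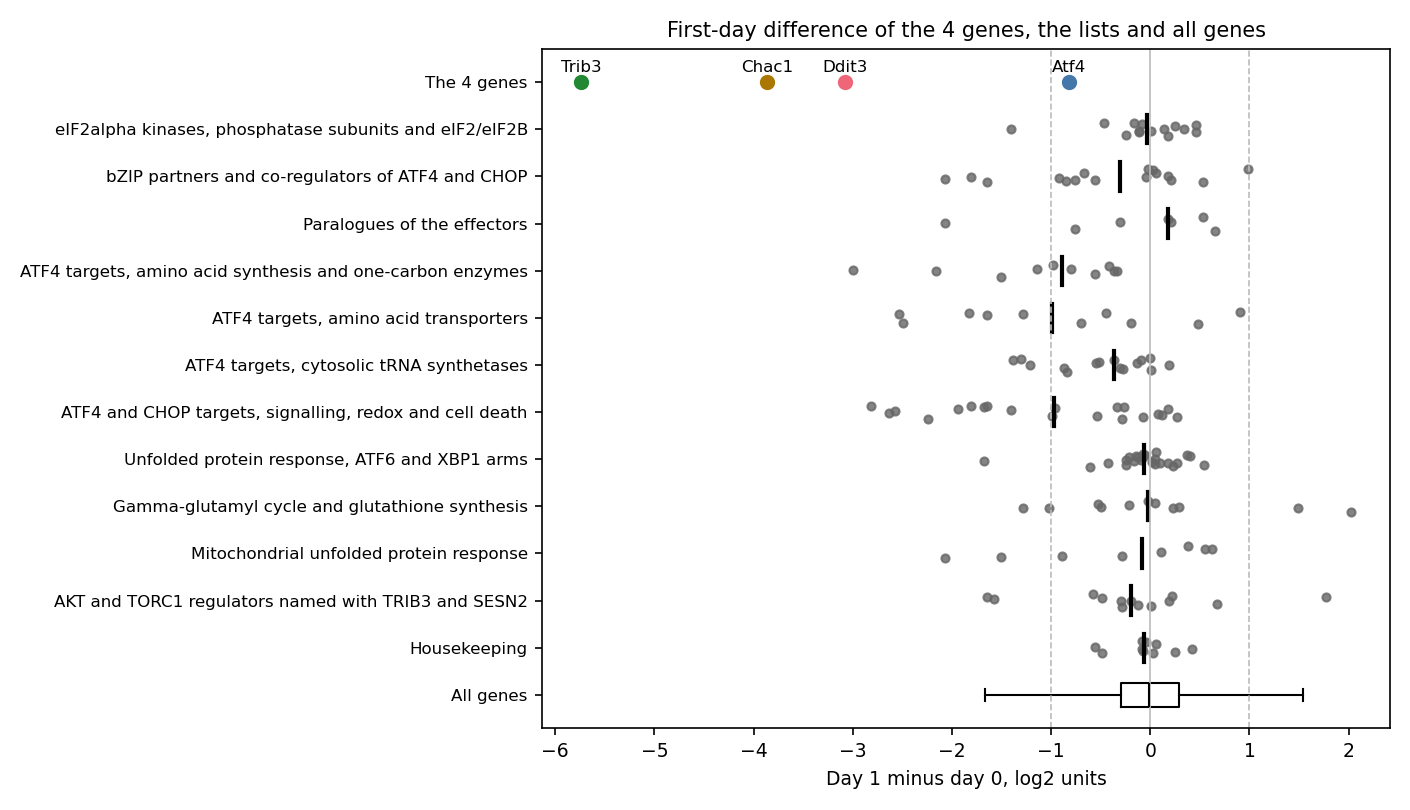
Day 1 minus day 0 in log2 units (horizontal axis) for the 4 effectors on their brightest probes (coloured), the genes of 12 lists (grey points, 1 per gene, with the median as a black bar) and all genes (box from the 25th to the 75th percentile, whiskers at the 1st and 99th). Dashed lines mark 2-fold. Trib3, Chac1 and Ddit3, at -5.74, -3.86 and -3.08, lie left of every other point, while the chaperone list and the eIF2α list are centred at -0.06 and -0.04.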

How the data were processed

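RNA of 6 samples was read on Illumina bead arrays, 1 array a day. The deposited table gives, per probe and array, the authors' intensity on a linear scale and a detection p-value, and its columns were assigned to days by their names, which the deposited value table matched (17785 of 17785 shared probes equal on each array). A deposited table of the authors gives signed folds over day 0. The sources used here do not give the authors' background correction or normalization. Of 46649 table entries, 6 had no identifier and 30 repeated one, which left 46613 probes.

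The intensities were background-corrected with the detection p-values (limma nec, offset 16), brought to common quantiles and log2-transformed with limma 3.58.1 in R 4.3.3. A probe was detected at p under 0.01. Of several probes for a gene, the brightest on average was used, and a gene was tested if detected on at least 1 array. Some slopes therefore pass through levels that were not above background, which limits what their size means. Examples are Cbs (detected on 2 of 6 arrays), Slc7a11, Hyou1 and Tnfrsf10b (3 each), and Bcat1, Stc2 and Fosl1 (4 each). Slopes on log2(day + 1) came from lmFit and eBayes with a trend, with 4 residual degrees of freedom for days 0 to 14 and 3 for days 1 to 14, and Benjamini-Hochberg adjustment at 0.05. Since arrays of one course stand in for replicates, these p-values measure scatter around a line. A fold against an array where a probe was not detected is a lower bound, set from the lowest signal of detected probes. It holds for the corrected and normalized signals only. On simulated data with 100 genes given slopes of 0.5, the fit over days 0 to 14 recovered 100% of them, among 8881 genes. Over days 1 to 14 it recovered 97%, among 8830 genes. False calls numbered 6 and 9 in turn. Whether this recovery holds for the measured courses was not tested. In the measured data 36 of 72 list calls along days 0 to 14 held without each single day. Along days 1 to 14 there were 17 of 67 that did.

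The 4 genes and the 12 lists were chosen with earlier results of these data known. Genes are named from a list if they had one of its 4 largest day 1 differences or 4 largest called slopes, or one of the 5 nearest courses to a member, or one of the 5 largest first-day falls. Ddit4 and Nupr1 in the later course, and other genes given outside that rule, were chosen after their values were seen. Alternatives were an nec offset of 50, no background correction, median scaling, no normalization between arrays, the mean of all probes, the untransformed day and leaving out each day. Tables were read with Python 3.11.15, pandas 2.3.3 and numpy 2.4.6.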

Additional observations from a re-analysis of the deposited data

How the results depend on the processing

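With 1 array a day, no single-day difference could be tested, and faint probes such as Trib3 on day 1 limit the size of a fold. Trib3 differed by -5.74 log2 units between days 1 and 0, by -4.89 without background correction and by -4.88 in the authors' deposited table; the other first-day differences of the 4 genes moved less. The ATF4 target lists together had 0 genes at least 2-fold higher on day 1, and 1 with the mean of all probes, with median scaling or with no normalization. Leaving out 1 day at a time gave 5 to 12 higher (main 7) and 21 to 30 lower (main 25) over days 0 to 14 in those lists, and 1 to 3 higher (main 2) and 4 to 10 lower (main 10) in the chaperone list. Over all genes it gave 587 to 1659 higher and 429 to 1580 lower along days 0 to 14, against 1647 and 1570, and 426 to 1626 higher and 450 to 1475 lower along days 1 to 14, against 1643 and 1580. With the untransformed day, limma called 0 higher and 0 lower along days 1 to 14 (3151 of 8830 at an unadjusted p under 0.05). The slope of Yme1l1 was 0.207, and -0.069 with the mean of all probes. Of 48 named genes with a call along days 0 to 14, 20 lost it without day 14, 18 without day 10 and 11 without day 6. The causes were not tested. No paired analysis was possible because each day has 1 array.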
